A study of Mus musculus with 6 samples.

Results

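Transforming growth factor beta (TGF-beta) genes were followed in 6 subcutaneous Hepa1-6 tumors of mice. The set holds 9 genes. They are the ligands Tgfb1, Tgfb2 and Tgfb3, the latent binding proteins Ltbp1 and Ltbp2, the receptors Tgfbr1 and Tgfbr2, and the induced genes Tgfbi and Ctgf (current symbol Ccn2). They were found by name, as the non-control probes carrying a current or former symbol of one of these genes, which gave 14 of the 41174 probes on the array and 9 of its 27577 names. All 9 genes passed the filter on dim probes in both comparisons, through 10 of the 14 probes.

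TGF-beta is secreted as an inactive complex with its own propeptide, and latent TGF-beta binding proteins tether that complex to the extracellular matrix until it is activated. The active ligand binds the type II receptor Tgfbr2, which recruits and phosphorylates the type I receptor Tgfbr1, and the type I receptor phosphorylates Smad2 and Smad3. Smads then enter the nucleus with Smad4 and change the transcription of matrix, adhesion and cell cycle genes. In tumors the pathway is known for its effects on fibroblasts, vessels and immune cells as well as on the malignant cells.

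Hepa1-6 is a mouse hepatoma line. Female C57Bl/6 mice received 10000000 of these cells under the skin with no further treatment named, and tumors were taken at day 10 (tumors 302, 307 and 312) or day 15 (tumors 303, 313 and 318). Ages are not given, and no label ties a tumor to a mouse, so the p-values measure only how these samples spread, which may be technical. RNA of each tumor was labelled with Cy5 and hybridised on its own 2-colour Agilent array against Cy3-labelled total RNA, described on every array as blood of an untreated female C57Bl/6 mouse. Each value below is a log2 ratio of tumor over that reference, unless a dye is named, and 1 unit is a doubling. Dyes were never swapped, so a dye bias of a probe remains in its ratio.

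Some arrays and labels stood apart. All day 10 arrays were on 1 slide and all day 15 arrays on another, so day and slide cannot be told apart. On the array of tumor 312, 15.1% of spots lay in an area of lost signal, which held the spots of Tgfb2 and Tgfbr1. Tumor 313 had a median ratio of -1.56 over 12 hepatoma and liver markers, against 2.18 to 3.1 in the other tumors. The Cy3 reference was well above background on all 6 arrays for 9 of 12 hepatoma and liver markers and 5 of 10 fibroblast and pericyte markers, but for 0 of 9 neutrophil markers and 3 of 6 erythroid markers, which goes against its label. It is called the reference labelled blood. The tumor channel held 8 of 12 hepatoma and liver markers, all 10 macrophage, all 10 fibroblast and pericyte and all 10 endothelial markers well above background on every array. In a bulk tumor, fewer cells of a type and less RNA per cell cannot be told apart.

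Against the reference labelled blood, TGF-beta genes were mostly higher in tumors. Of the 9 genes, 6 passed an adjusted p of 0.05 with a log2 ratio of at least 1 (limma with Benjamini-Hochberg adjustment over all probes), against 25.5% of the 16327 genes tested. These were Tgfbi, Tgfb3, Ltbp2, Tgfbr2, Tgfb2 and Ltbp1. The ratio lay above 0 on all 6 arrays for 5 of the 9 genes, against 43.3% of all genes, while Tgfb3 was above 0 on the 5 arrays that measured it. Only Ctgf passed in the lower direction, where 9.77% of all genes did. The median log2 ratio of the 9 genes was 2.11, and that of all genes tested was 0.22. The reference counts as 1 sample, so its own spread is left out of these tests.

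**Figure D1:**
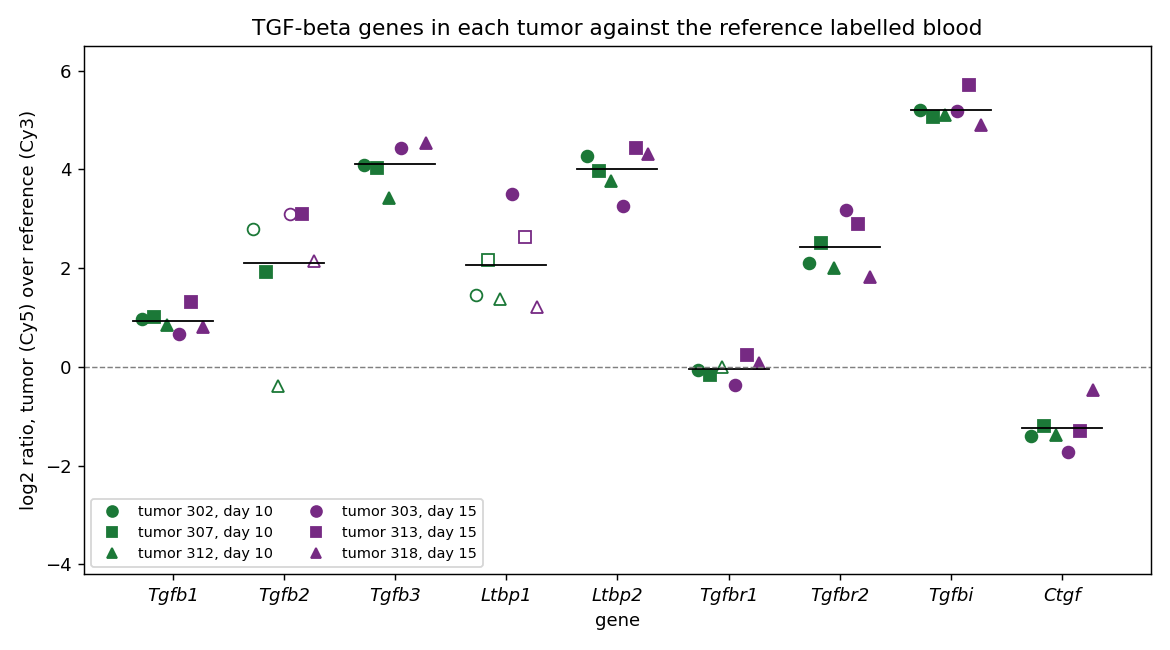
Log2 ratio of tumor over the reference labelled blood (vertical axis) for the 9 genes (horizontal axis), with a point for each tumor coloured by day and a line at the mean, and open points where either dye was not well above background. Tgfbi sits between 4.91 and 5.71 in every tumor, Ctgf lies below 0 in all 6 tumors, and Tgfb2 of tumor 312, whose spot lay in the area of lost signal, lies apart at -0.40.

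Among the ligands, Tgfb3 had the highest ratio, and Tgfb1 stayed below a doubling. Tgfb1 is the ligand with the broadest expression, made by immune cells, platelets and many others. Its log2 ratio was 0.97, 1.01 and 0.84 in day 10 tumors 302, 307 and 312, and 0.67, 1.31 and 0.80 in day 15 tumors 303, 313 and 318. All 6 values lay above 0, and the days overlapped. The mean was 0.93 ± 0.22 (SD, n = 6), with an adjusted p of 0.000187, but it missed the required ratio of 1. The Tgfb1 probe was printed 10 times per array, and the SD over these spots was 0.04 to 0.07, smaller than the SD over tumors. With each array centred on its median and no loess, the Tgfb1 ratio fell to 0.24 (adjusted p = 0.0372).

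Tgfb2, a ligand with roles in development and in mesenchymal tissue, had log2 ratios of 2.79, 1.92 and -0.40 at day 10 (tumors 302, 307, 312) and of 3.1, 3.1 and 2.15 at day 15 (tumors 303, 313, 318). Tumor 312 was the low value, and the other 5 tumors lay within 1.92 to 3.1. The mean of 6 was 2.11 ± 1.32 (SD), with an adjusted p of 0.00243. With the area of lost signal left out it was 2.57. The Cy5 signal was well above background on 5 arrays and the Cy3 signal on 2, so on the other arrays the denominator was not a measured level.

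Tgfb3, the third isoform, is known for its part in palate fusion and wound repair. It had log2 ratios of 4.10, 4.03 and 3.42 at day 10 and of 4.43 and 4.54 in tumors 303 and 318 at day 15. The spot of tumor 313 was marked non-uniform in both dyes and was left out of the fit, so 5 values remain. Both day 15 values lay above all 3 day 10 values. The fitted ratio to the reference was 4.17 (adjusted p = 3.87e-06), above 0 in all 5 tumors measured, and both dyes were well above background on all 6 arrays. With the marked spot kept, tumor 313 had a ratio of 2.84, the lowest of 6, and the fitted ratio to the reference was 3.89.

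The latent binding proteins were both higher than the reference and differed in how they varied. Ltbp1, which targets latent TGF-beta to matrix fibrils, had log2 ratios of 1.45, 2.16 and 1.38 at day 10 (tumors 302, 307, 312) and of 3.51, 2.62 and 1.21 at day 15 (tumors 303, 313, 318). Tumor 303 was highest and tumor 318, of the same day, lowest. The mean was 2.06 ± 0.89 (SD, n = 6), with an adjusted p of 0.000593. Cy5 was well above background on all 6 arrays, while Cy3 was so only on the array of tumor 303. On the scanner's processed signals the Ltbp1 ratio was 3.45. A second Ltbp1 probe was well above background on 1 array in each dye and was not tested.

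Ltbp2 belongs to the same family and sits on elastic microfibrils, but does not bind latent TGF-beta. Its log2 ratios were 4.26, 3.97 and 3.77 at day 10 (tumors 302, 307, 312) and 3.25, 4.43 and 4.32 at day 15 (tumors 303, 313, 318). The mean was 4.0 ± 0.44 (SD, n = 6), with an adjusted p of 3.74e-06, and tumor 303 was lowest. The Ltbp2 signal moved in both dyes. In Cy5 the log2 signal was 13.4, 12.6 and 12.8 at day 10 and 10.4, 13.3 and 14.1 at day 15. In Cy3 it was 9.11, 8.65 and 8.99 on the day 10 arrays and 7.11, 8.86 and 9.81 on the others. The array of tumor 303 was lowest and that of tumor 318 highest in both, although the reference was described alike on every array. The range over arrays was 3.76 in Cy5, 2.69 in Cy3 and 1.18 in the ratio. The part of the array itself in the Ltbp2 signal was not tested. A second Ltbp2 probe was not well above background on any array.

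**Figure D2:**
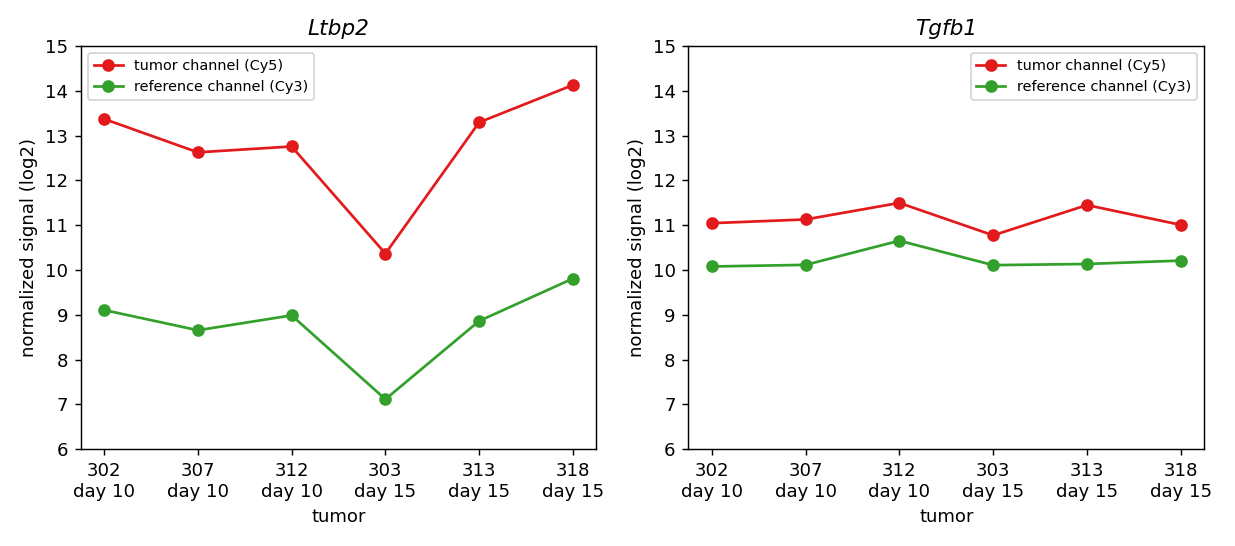
Normalized log2 signal (vertical axis) of the tumor channel (Cy5) and the reference channel (Cy3) on each of the 6 arrays (horizontal axis), for Ltbp2 and, beside it, Tgfb1. The Ltbp2 lines dip together on the array of tumor 303, to 10.4 in Cy5 and 7.11 in Cy3, while those of Tgfb1 range over 0.72 in Cy5 and 0.58 in Cy3.

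The receptors were unlike each other. Tgfbr1, the type I receptor kinase, had ratios close to 0, at -0.06, -0.17 and 0.00 at day 10 (tumors 302, 307, 312) and -0.37, 0.24 and 0.08 at day 15 (tumors 303, 313, 318). The values lay on both sides of 0, with a mean of -0.05 ± 0.21 (SD, n = 6) and an adjusted p of 0.661. Its spot on the array of tumor 312 lay in the area of lost signal and was not well above background in either dye. On the other 5 arrays the signal was high in both dyes, at 10.9 or more in Cy5 on the log2 scale. Its size depended on scaling. With median centring and no loess, the Tgfbr1 ratio was -0.71 (adjusted p = 0.00155), and on the processed signals -0.38 (adjusted p = 0.0228), neither of them past the required ratio of 1. A second Tgfbr1 probe was not well above background on any array.

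Tgfbr2, the type II receptor that binds the ligand first, was higher in all 6 tumors than in the reference. Its log2 ratios were 2.10, 2.52 and 2.01 at day 10 (tumors 302, 307, 312) and 3.18, 2.90 and 1.83 at day 15 (tumors 303, 313, 318). Tumor 303 was highest and tumor 318 lowest. The mean was 2.42 ± 0.54 (SD, n = 6), with an adjusted p of 4.27e-05. A second Tgfbr2 probe, annotated to another RefSeq transcript, disagreed. Its mean was -0.25 ± 0.28 (SD, n = 6), with an adjusted p of 0.0743, and its Cy5 signal was well above background on 4 arrays. With the tested Tgfbr2 probes averaged, the ratio was 1.08. The third Tgfbr2 probe was not well above background on any array.

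The induced genes went opposite ways. Tgfbi, a secreted matrix protein named for its induction by TGF-beta, had the highest ratio of the set. It was 5.21, 5.07 and 5.10 at day 10 and 5.18, 5.71 and 4.91 at day 15, in the same order of tumors as above. The mean was 5.19 ± 0.27 (SD, n = 6), with an adjusted p of 2.32e-07, which is a 36.6-fold difference from the reference. The 6 values lay within 0.80 of each other.

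Ctgf, the matricellular protein connective tissue growth factor, is also a target of the Hippo pathway effectors Yap and Taz. It was lower in tumors than in the reference, at -1.40, -1.19 and -1.39 at day 10 (tumors 302, 307, 312) and -1.72, -1.30 and -0.46 at day 15 (tumors 303, 313, 318). All 6 values lay below 0, and tumor 318 was the nearest to it. The mean was -1.24 ± 0.42 (SD, n = 6), with an adjusted p of 0.000416. Both dyes were bright, with log2 signals of 14.4 to 15.6 in Cy5 and 16.0 to 16.7 in Cy3, so the ratio compared a strong tumor signal with a stronger reference signal. Ctgf of the reference was 0.36 lower on the day 15 slide than on the day 10 slide (unadjusted p = 0.0319, adjusted p = 0.592, limma). In this Cy3 comparison 0 of 20929 probes were called, and 265 had an unadjusted p under 0.05. Among the other members the Cy3 change was -0.43 for Tgfbi, -0.35 for Ltbp2, -0.15 for Tgfb1 and 0.14 for Tgfb3. It was -0.34 for the brighter Tgfbr2 probe, 0.27 for the second, and 1.71 for Tgfbr1, whose spot of tumor 312 lay in the area of lost signal. With median centring and no loess, the Ctgf ratio was -2.22.

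The wider pathway was read from 96 genes in 6 lists, of which 87 were tested against the reference. In all, 40 (46.0%) were higher by at least 1 log2 unit and 7 (8.05%) lower, where 25.5% and 9.77% of all genes were, so the lower share is near that of all genes. Their median ratio was 0.90, beside 0.22 over all genes tested. Scaling sets how a whole array sits against 0. With median centring and no loess the median of all genes was -0.34, the pathway genes called were 35 higher and 18 lower, and the share of all calls that were higher went from 72.3% to 41.3%. On the scanner's processed signals, and on the deposited value table, 42 pathway genes were higher and 12 lower, and the share of all calls that were higher was 57.9% on the processed signals.

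Among 11 other ligands of the superfamily, 6 (54.5%) were higher and none lower, where 25.5% and 9.77% of all genes were. Their median ratio was 1.17. Inhbb, which encodes the activin B subunit, had 4.2 (adjusted p = 2.55e-06). Inhba, the activin A subunit, had a fitted ratio of 2.01, with 1.61 to 2.83 in 5 tumors and -0.05 in tumor 303. Gdf10, a BMP-family ligand, was never well above background in Cy3, and was at least 5.11-fold higher in tumors. For this bound the mean tumor signal was divided by a floor, taken per array as the Cy3 signal of the probe or the lowest Cy3 signal of any probe well above background, whichever was higher. Of 9 other receptors and coreceptors, 3 (33.3%) were higher and none lower, beside the same 25.5% and 9.77% of all genes. Eng had 3.06 and Acvrl1 2.19, both of them known for endothelial TGF-beta signalling. Acvr1b, a type I activin receptor, had 1.45, and 0.76 with median centring and no loess, where it was no longer called. Endothelial markers had median ratios of 2.42 to 3.71 across tumors, and their part in Eng and Acvrl1 was not tested.

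Of 12 genes of latency and activation tested, 6 were higher and 1 lower, with a median of 1.28. Fbn1, the microfibril protein that anchors latent complexes, had 6.75. Nrros, which tethers latent TGF-beta on microglia and macrophages, had 5.40, and Mmp2, a gelatinase able to release it, had 4.2. Itgb6, the epithelial integrin subunit that activates latent TGF-beta1, was lower, at -2.75, with the tumor signal well above background on 3 of 6 arrays. Macrophage markers had median ratios of 5.0 to 5.53 across tumors and fibroblast and pericyte markers 3.76 to 4.88, and their part in these ratios was not tested. Of 7 extracellular inhibitors, 3 (42.9%) were higher and none lower, beside the same 25.5% and 9.77% of all genes. Bgn, a proteoglycan that binds TGF-beta, had 3.18. Fmod, another such proteoglycan, had 1.97 and Grem1, a BMP antagonist, had 1.17. The Cy3 signal of neither was ever well above background, and Cy5 was so on 5 arrays for Fmod and 3 for Grem1. Their ratios rest on a denominator that was not measured and, on some arrays, on a numerator that was not. Grem1 was no longer called without tumor 313 (0.86).

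The Smads and their regulators had the lowest median of the 6 lists, -0.16. Of 21 genes, 4 (19.0%) were higher and 5 (23.8%) lower, where 25.5% and 9.77% of all genes were. Bambi, a decoy receptor, had 2.72, Pmepa1, which interferes with Smad activation, had 2.01 with Cy3 well above background on 1 of 6 arrays, and Ski, a Smad corepressor, had 1.54. Ski was no longer called with median centring and no loess (0.65). The genes lower than the reference were Map3k7 at -1.33, Smad2 at -1.15, Tgif2 at -1.09, Trim33 at -1.05 and Strap at -1.01. Without tumor 313 the last 4 of these missed the required ratio, at -0.99 for Smad2, -0.84 for Tgif2, -0.92 for Trim33 and -0.95 for Strap. Over the 6 lists 3 lower genes then remained, Map3k7, Itgb6 and Cdkn2b.

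The other target genes had the highest median of the lists, 1.82. Of 27 genes, 18 (66.7%) were higher and 1 (3.70%) lower, where 25.5% and 9.77% of all genes were. Collagens led, with 7.65 for Col1a1, 7.05 for Col3a1 and 6.33 for Col1a2. Cdkn2b, a cyclin-dependent kinase inhibitor that TGF-beta induces in epithelial cells, was the lower gene, at -2.37. Ccn1, the closest relative of Ctgf in the list and named after its values were seen, had -0.45 (adjusted p = 0.0190), which missed the required ratio.

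**Figure D3:**
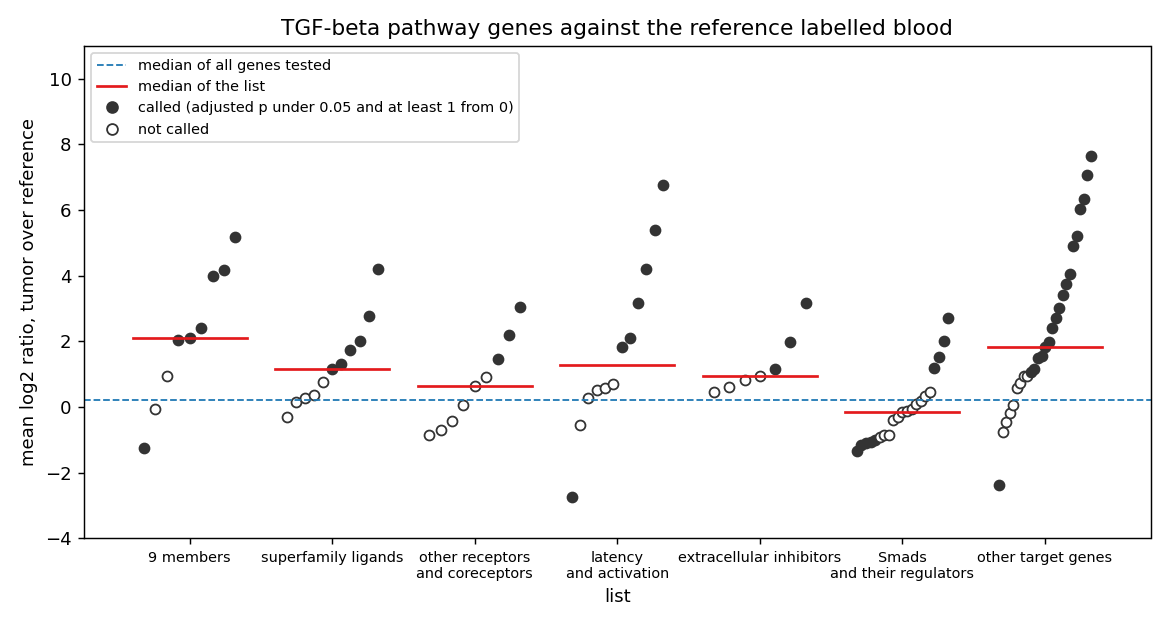
Log2 ratio of tumor over the reference labelled blood (vertical axis) for each gene of the set of 9 and of the 6 pathway lists (horizontal axis), with a point per gene, a line at the median of each list, a dashed line at the median of all genes tested, and filled points for genes past the adjusted p of 0.05 with a ratio at least 1 from 0. The list of Smads and their regulators is centred at -0.16, and that of other target genes at 1.82 with the collagens at its upper end.

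Between the days, none of the 9 genes passed an adjusted p of 0.05 (limma), where 9 of 15806 genes, or 0.0569%, did. At an unadjusted p under 0.05 there was 1, Tgfb3, where 4% of all genes were past it. The smallest adjusted p over the 9 genes was 1.0. The difference of day 15 minus day 10 was above 0 for 7 genes and below 0 for 2, where 55.0% of all genes tested were above 0. Its median was 0.16 beside 0.02 over all genes tested. With median centring and no loess, 14.4% of all genes were above 0. Values of the days did not overlap for 1 of the 9 genes, Tgfb3, against 9.14% of all genes, of which day 15 was the higher in 5.21% and the lower in 3.92%.

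Tgfb3 was 0.64 higher at day 15 (95% interval 0.00 to 1.28, unadjusted p = 0.0499), from 2 values against 3. With the marked spot of tumor 313 kept, the difference was 0.09. Tgfb2 had a difference of 1.34 (-0.57 to 3.26), and 0.42 with the area of lost signal left out. Ltbp1 had 0.79 (-0.59 to 2.16), which became 0.26 without tumor 303 and 1.40 without tumor 318. On the scanner's processed signals, and on the deposited value table, the Ltbp1 difference was 0.20. Tgfbr2 had 0.42 (-0.46 to 1.30), which became 0.83 without tumor 318 and 0.15 without tumor 303. All 4 intervals reach past a doubling, and those of Tgfb2, Ltbp1 and Tgfbr2 also hold 0, so for these 3 genes neither 0 nor a doubling lies outside the interval.

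The other 5 genes had differences nearer to 0. Tgfb1 had -0.01 (95% interval -0.50 to 0.47), Tgfbr1 0.06 (-0.40 to 0.52), Tgfbi 0.14 (-0.40 to 0.67), Ctgf 0.16 (-0.61 to 0.93) and Ltbp2 0.00 (-0.82 to 0.81). None of these intervals reached a doubling or a halving, within the slide and scaling they share. That of Tgfbr1 includes tumor 312, whose spot lay in the area of lost signal with neither dye well above background. Its ratio there was not measured, so the interval may be too narrow. With that area left out the Tgfbr1 difference was 0.10. With median centring and no loess the median of all genes moved to -0.30, and Tgfbr1, Ctgf and Tgfbi then lay below 0.

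**Figure D4:**
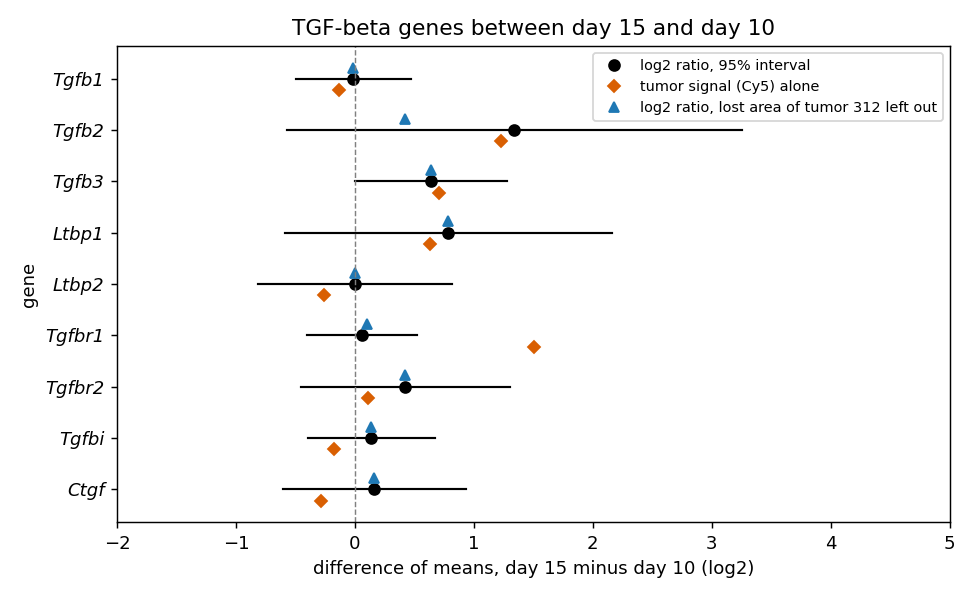
Day 15 minus day 10 difference of the log2 ratio (horizontal axis) for each of the 9 genes (vertical axis), as the limma estimate with its 95% interval, with triangles for the estimate without the area of lost signal and diamonds for the Cy5 signal alone. The interval of Tgfb2 is the widest, from -0.57 to 3.26, that of Tgfb3 begins at 0.00, and Tgfbr1 in Cy5 alone stands at 1.5, where its spot of tumor 312 lay in the area of lost signal.

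None of the 86 pathway genes tested passed between the days (limma, smallest adjusted p = 0.116), where 0.0569% of all genes did. At an unadjusted p under 0.05 there were 6, where 4% of all genes were past it. Of the 86, 48 had a difference above 0 and 38 below, with a median of 0.05. Of all genes tested, 55.0% were above 0, so the split is near that of all genes. The smallest p belonged to Tagln, a smooth muscle actin-binding protein induced by TGF-beta. It had 3.04, 2.74 and 3.03 at day 10 (tumors 302, 307, 312) and 4.88, 4.51 and 4.35 at day 15 (tumors 303, 313, 318), with no overlap and a difference of 1.64 (unadjusted p = 8.54e-05, adjusted p = 0.116). Fmod had 1.32, 1.15 and -0.08 at day 10 and 2.86, 3.04 and 3.53 at day 15, a difference of 2.34 (adjusted p = 0.370), or 1.90 with the area of lost signal left out. Cnn1, a smooth muscle contractile regulator, had a difference of 2.5 (unadjusted p = 0.0210, adjusted p = 1.0) and was well above background in Cy5 in 1 of 3 day 10 tumors and 3 of 3 day 15 tumors. Nox4, an oxidase gene, had a difference of 0.96, Col3a1 0.52 and Nrros 0.48, each at an unadjusted p under 0.05 and an adjusted p of 1.0. Values of the days did not overlap for 8 of the 86 genes (9.30%), near the 9.14% of all genes. Day 15 was the higher in these 6 genes and the lower in Bmp4 and Itgb6. In the other lists the genes of smallest p were not past an unadjusted p of 0.05. Among ligands the difference was -1.18 for Bmp4 (-0.56 without tumor 313), 1.10 for Gdf10 and 0.35 for Bmp2. Among receptors it was 0.36 for Eng, 1.02 for Acvrl1 (0.17 with the area of lost signal left out) and 0.25 for Acvr1. Among Smads and their regulators it was 0.61 for Pmepa1, 0.33 for Smad1 and -0.46 for the inhibitory Smad7. Mmp2 had 0.503, Bgn 0.68 and Fstl3 -0.35, also not past that p. Itgb6 was well above background in Cy5 in 3 of 3 day 10 tumors and 0 of 3 day 15 tumors, so its difference was not measured on both sides. For Fmod, Nox4, Gdf10 and Bmp2 the Cy3 signal was never well above background, so their ratios rest on a denominator that was not measured. In Cy5 alone the difference was 2.21 for Fmod, 0.77 for Nox4, 0.63 for Gdf10 and 0.14 for Bmp2. Some cell type markers also differed in level by day. Skeletal muscle markers had median ratios of 2.55 to 4.04 at day 10 and -0.14 to -0.05 at day 15. Hepatoma and liver markers had a median difference of -1.03, but of the day 15 tumors only tumor 313 lay below the day 10 tumors. Its median ratio was -1.56, against 2.18 to 3.1 in the other tumors. The median difference was 0.69 for endothelial markers (10 of 10 above 0), 0.60 for fibroblast and pericyte markers (9 of 10) and 1.41 for adipocyte markers (7 of 7). For fibroblast and pericyte and for adipocyte markers, the days overlapped, as the median ratio of day 15 tumor 318 lay within the day 10 range. The part of these cells in the differences was not tested.

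Ltbp1 and Tgfbr2 placed the 6 tumors in an identical order, which was seen in the values and is given as a description. It holds for the brighter of the 2 tested Tgfbr2 probes. The other probe had tumor 303 highest as well, but tumor 302 lowest, with tumor 318 above tumors 313, 312 and 302. From high to low the shared order was 303, 313, 307, 302, 312 and 318. It runs across both days, with 2 day 15 tumors at the top and the third at the bottom. In the normalized Cy5 signal the orders of both genes were again identical, with tumors 312 and 302 exchanged. This signal was rebuilt from the normalized ratio and mean intensity, so it is not free of the Cy3 channel. The log2 Cy5 signal of Ltbp1 was 10.5, 9.28, 8.90, 8.53, 8.20 and 7.90 in tumors 303, 313, 307, 312, 302 and 318, and that of Tgfbr2 was 16.0, 15.7, 15.6, 15.4, 15.0 and 14.6. Both genes share the arrays, and these tumors also differ in cell type markers. Adipocyte markers had a median ratio of 4.51 in tumor 303 and 4.56 in tumor 313, against 0.08 to 2.23 in the other 4. Fibroblast and pericyte markers had 4.8 and 4.88 in these 2 tumors, against 3.76 to 4.18. In both lists tumor 312 was lowest, and not tumor 318. Tumors 303 and 313 were also highest for endothelial markers (3.53 and 3.71, against 2.42 to 3.09). For macrophage markers they had 5.52 and 5.53, against 5.0 to 5.23. They were highest for B and plasma cell, platelet and keratinocyte markers as well. They were not the highest pair for T cell, neutrophil, erythroid, hepatoma and liver, or skeletal muscle markers. For T cell markers tumor 303 had 3.54, against 4.33 in tumor 318. Tumor 318 was highest for neutrophil markers (2.52), and tumor 313 was lowest for hepatoma and liver markers (-1.56). The part of any of these lists in the order was not tested.

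**Figure D5:**
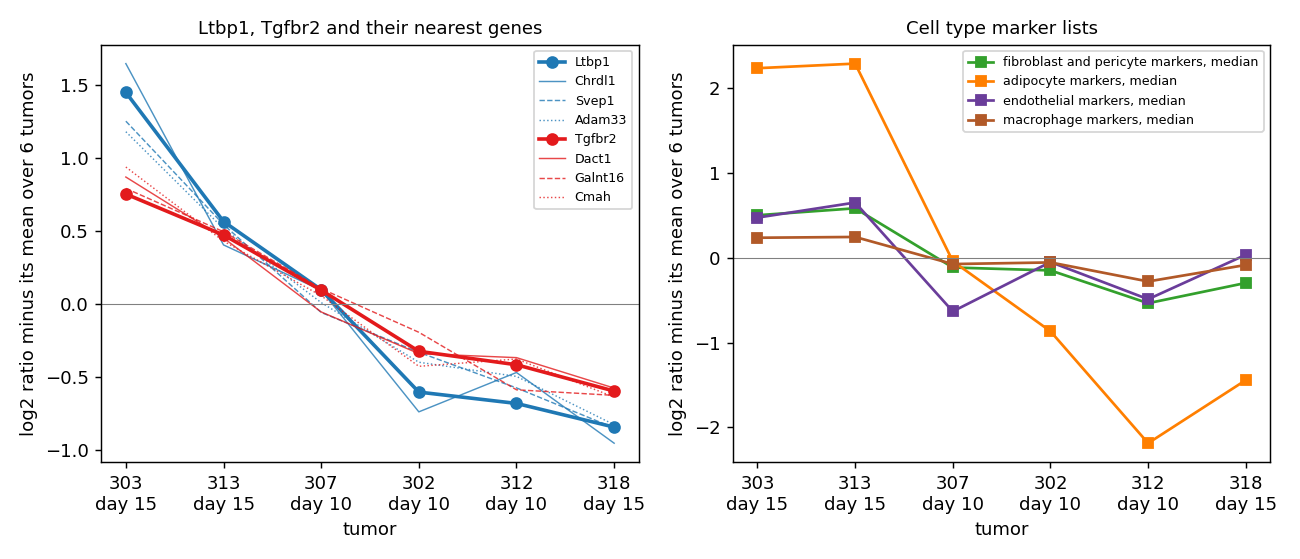
Log2 ratio minus its mean over the 6 tumors (vertical axis), with tumors ordered by Ltbp1 (horizontal axis), for Ltbp1, Tgfbr2 and the 3 genes nearest to each, and beside them the medians of 4 cell type marker lists. Tumors 303 and 313 of day 15 are highest in both genes and tumor 318, also of day 15, is lowest in both. The medians of the 4 marker lists shown are highest in tumors 303 and 313 too, which does not hold for every list not shown.

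The promoters of this pair are shown because these members, by the brighter Tgfbr2 probe, moved together across tumors. They are the 250 bases before each annotated start (RefSeq, GRCm38.p6). Tgfbr2 has 1 annotated start and its window is chr9:116175364-116175613 on the minus strand. Ltbp1 has 2 annotated starts on the plus strand, at chr17:75005279-75005528 and chr17:75178531-75178780. Capitals mark matches to the Smad box CAGAC or its reverse complement GTCTG.
Tgfbr2: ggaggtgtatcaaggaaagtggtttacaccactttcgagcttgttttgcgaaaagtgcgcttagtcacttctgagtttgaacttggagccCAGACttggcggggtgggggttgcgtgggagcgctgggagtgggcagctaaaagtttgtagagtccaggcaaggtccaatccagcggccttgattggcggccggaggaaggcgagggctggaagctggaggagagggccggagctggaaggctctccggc
Ltbp1, start 1: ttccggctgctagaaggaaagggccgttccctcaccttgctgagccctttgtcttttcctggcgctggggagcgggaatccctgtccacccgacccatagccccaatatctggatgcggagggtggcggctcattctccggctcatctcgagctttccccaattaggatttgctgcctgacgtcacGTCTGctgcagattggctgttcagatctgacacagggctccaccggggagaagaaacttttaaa
Ltbp1, start 2: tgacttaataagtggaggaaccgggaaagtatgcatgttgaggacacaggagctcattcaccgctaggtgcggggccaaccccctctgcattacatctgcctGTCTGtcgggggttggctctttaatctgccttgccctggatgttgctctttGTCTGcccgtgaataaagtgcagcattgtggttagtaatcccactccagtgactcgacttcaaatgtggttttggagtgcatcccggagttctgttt
The Smad box matched 1 time in the Tgfbr2 window, 1 time in the window of Ltbp1 start 1 and 2 times in that of start 2. Of 32851 promoter windows of this length, 42.2% hold at least 1 such match, so a match is common. No window of the 3 held the AP-1 site TGAGTCA or its reverse TGACTCA, which 4.46% of all windows hold, or the GC box GGGCGG or its reverse CCGCCC, which 32.7% hold. The motifs do not overlap each other in these windows. A match is a description of letters and not a bound site.

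The 3 members with the largest SD over tumors, among those with a value on every array, were Tgfb2, Ltbp1 and Tgfbr2. The genes of most similar pattern were sought by the root mean square difference of mean-centred log2 ratios over the 6 tumors, among 10780 named genes well above background in Cy5 on all arrays. Nearest to Ltbp1 were Chrdl1 (0.153), Svep1 (0.158) and Adam33 (0.163). Nearest to Tgfbr2 were Dact1 (0.0810), Galnt16 (0.0907) and Cmah (0.0924). Chrdl1 was 1.65 above its own mean in tumor 303 and at -0.95 from it in tumor 318. The neighbours were chosen by these same values, so sharing the high and low tumors of the pair follows from the choice. Nearest to Tgfb2 were Rhoj (0.162), Arhgap4 (0.201) and Nipa1 (0.217). All 3 were far below their own means in tumor 312, by -2.62, -2.31 and -2.51, and the spots of Arhgap4 and Nipa1 lay in the area of lost signal there.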

How the data were processed

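RNA of 6 Hepa1-6 tumors (3 at day 10, 3 at day 15, named by their label numbers) was hybridised on 2-colour arrays. Scanner output was deposited that, per the file headers, came from Agilent Feature Extraction 9.1.3.1 and that gives, per spot and dye, a mean intensity and a background intensity that are not normalized. The deposited log10 ratio is processed Cy5 over Cy3 after that software's background subtraction and dye normalization, and the deposited value table held log10 ratios that differed from it by 0. How the RNA was labelled and arrayed beyond this is not given in the sources used here. Each array held 45018 spots, 1639 of them controls, and 41174 other probes. Well above background were 51.4% to 57.3% of spots in Cy5 and 46.4% to 51.7% in Cy3, and precision is limited by the number of arrays.

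In limma 3.58.1 under R 4.3.3, intensities were corrected with normexp (offset 50) and log2 ratios were normalized within arrays by loess. Controls and outlier-marked spots were dropped, and repeated spots of 1 probe were averaged. Names came from a RefSeq table of mouse genes (GRCm38.p6). Accessions named 23374 probes, current symbols 6735 and former symbols 2907, and the rest (8158) kept the array's name. The array files name no genome build. A gene is represented by its probe of highest mean log intensity. All tumors entered 1 linear model (lmFit, eBayes), with 2-sided tests and Benjamini-Hochberg adjustment over all probes. The days were compared at 0.05 on 23067 probes whose Cy5 was well above background on 3 or more arrays. The reference was compared on 24250 probes for which this held in Cy5 or in Cy3, and a log2 ratio at least 1 from 0 was also required. The scripts were tested on simulated data.

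Members, lists, tests and the rule for names were chosen with earlier results of these data known. The rule took all 9 members with every probe and, in each pathway list, up to 3 genes of smallest unadjusted p between the days and up to 3 of largest absolute ratio to the reference. For 3 members it took the 3 genes of most similar pattern. Of the 9 members, 7 matched a RefSeq promoter window, and protein sequences were not used here. Other names were chosen after their values were seen. The alternatives were other background, scaling, filter, probe and spot choices, array position as a block, and leaving out each tumor. Keeping outlier spots was added after seeing the data.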

Additional observations from a re-analysis of the deposited data

Results flagged for a closer look

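Among the 9 genes, Tgfb2 had 1 tumor far from the others. Tumor 312 had a log2 ratio of -0.40, and its gap to the next tumor was 0.664 of the whole range of the 6 tumors. Chance sets a sample apart by this measure in about 1 in 20 groups, and several genes were screened, so 1 flag among them is not rare. The spot lay in the area of lost signal of that array and was not well above background in either dye.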

How the results depend on the processing

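None of the 9 genes and no pathway gene was called between the days under any alternative run. Of the 9 genes, 6 were higher and 1 lower than the reference under all alternatives except that 5 were higher where signals had to be well above background on all 6 arrays. Tgfb2 and Tgfbr1 did not pass that filter and were not tested there. Pathway genes lower than the reference numbered 7, but 18 with median centring and no loess, 12 on the scanner's processed signals, 12 on the deposited value table, and 3 to 8 with each tumor left out in turn (3 without tumor 313). Day differences changed sign without being called. With median centring and no loess they were -0.39 for Acvr1, -0.22 for Ctgf, -0.35 for Smad1, -0.21 for Tgfbi and -0.49 for Tgfbr1. On Cy5 alone they were -0.21 for Bgn, -0.29 for Ctgf and -0.18 for Tgfbi. On the processed signals they were 0.038 for Ltbp2 and -0.038 for Tgfbr1, and the deposited values gave 0.038 and -0.065. With each tumor left out in turn they ranged over -0.19 to 0.44 for Ctgf, -0.22 to 0.37 for Ltbp2, -0.21 to 0.12 for Tgfb1, -0.083 to 0.32 for Tgfbi and -0.065 to 0.24 for Tgfbr1, and the ratio of Tgfbr1 to the reference over -0.11 to 0.041. The cause of these changes was not tested. No paired analysis was possible because the tumors of the days share no numbers, and a slide block could not be fitted because each day is 1 slide. Dim reference signals limit the ratios of Tgfb2 and Ltbp1.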
